A study of Rattus norvegicus with 196 samples.

Results

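The bed nucleus of the stria terminalis (BNST) was compared between rats given fluoxetine (FT) and rats given plain drinking water (Sham), using every count table whose label named this region. That gave 8 of the 196 samples of the series, 4 FT and 4 Sham, numbered 1, 3, 4 and 5 in each group. The animals were male Long-Evans rats, 2 months old at the start, and FT rats received 18 mg/kg of fluoxetine a day in the drinking water for 6 weeks. Fluoxetine is a selective serotonin reuptake inhibitor and an antidepressant. Each sample was RNA from frozen tissue punches pooled over 10 animals, so that animals within a pool could not be told apart, and the punches of 25 regions came from the same brains. Pools that carry one number in both treatments went through the laboratory side by side, and each number is a pair. All values are listed in the order of replicates 1, 3, 4 and 5.

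The BNST lies in the basal forebrain between the septum, the striatum, the preoptic area and the anterior thalamus, and is counted with the central and medial amygdala as the extended amygdala. Most of its neurons are inhibitory and use GABA, and many also release neuropeptides such as enkephalin, somatostatin, neurotensin or corticotropin-releasing hormone. It is known for its part in sustained anxiety, stress responses and social behaviour, and it receives serotonergic fibres from the raphe nuclei.

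Reads counted to transcripts ranged from 5992347 (Sham replicate 3) to 20104960 (Sham replicate 1), and 15537 to 20918 transcripts had at least 1 count. Libraries of replicate 3 stood apart, since their 50 most abundant transcripts took 68.6% (Sham) and 59.6% (FT) of the counts. In the other libraries this share was 50.9% in Sham replicate 1 and 24.9 to 33.2% elsewhere, and it was lower in FT than in Sham in 4 of 4 pairs. A single transcript without a gene name took 5.53 to 40.5% of the counts. On a principal component analysis of log2 levels, the leading component held 60.0% of the variance, and on it both samples of replicate 3 and FT replicate 1 lay farthest from the 4 samples of replicates 4 and 5. The counts came from tissue pieces, so fewer cells of a type and less RNA per cell cannot be told apart.

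Compared with Sham samples of the other 24 regions, Sham BNST held 5 of 7 traced striatal markers and 8 of 17 oligodendrocyte markers at a higher level, and the GABA gene Gad2. Of 17008 transcripts tested with edgeR in 96 Sham samples, 466 (2.74%) were higher and 131 (0.77%) lower in the BNST at an adjusted p of at most 0.05 and a log2 difference of at least 1. Of these, 191 of the higher and 95 of the lower transcripts were also called when FT samples, which this contrast had not used, were compared instead. Gene names could be given to 1845 transcripts only, through a list that the study had made from transcripts changed in several regions, so 5 of the 36 symbols chosen to mark BNST and GABA neurons could be traced and the peptide and transcription factor genes that define the BNST best could not be checked.

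Among the 5 traced markers, Gad2, which makes GABA, was 1.17 ± 0.12 (SE) higher on the log2 scale in Sham BNST (edgeR adjusted p = 1.34e-11) and stood 4th of the 25 regions. PENK, the enkephalin precursor, was 1.70 ± 0.20 higher (edgeR adjusted p = 5.95e-10). Cartpt, St18 and Th were not called, with log2 differences of 0.33, 0.79 and -1.45. Of 7 traced striatal markers 5 were called higher, led by the adenosine receptor gene Adora2a (3.08 ± 0.19, edgeR adjusted p = 1.59e-23) and followed by Ppp1r1b (1.87), DRD2 (1.83), PENK (1.70) and Syndig1l (1.70). For Adora2a the nucleus accumbens core had the highest level and the BNST stood 4th. Of 17 oligodendrocyte markers 8 were called higher, and Opalin, Tspan2, Evi2a and Olig2 had their highest mean level of all 25 regions in the BNST. The median log2 difference was 1.70 over the striatal markers and 0.99 over the oligodendrocyte markers. How much striatal tissue or white matter the punches held was not tested.

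Oxt, the oxytocin precursor, had the largest named difference (4.07 ± 0.34, edgeR adjusted p = 1.36e-15), and it kept this call without replicate 3 (3.99, edgeR adjusted p = 1.42e-08). Levels are given in CPM, counts per 1000000 of a library total scaled by TMM factors, so a value is not a plain share of the counts. Over all tested transcripts CPM summed to 2092000 (Sham) and 1943000 (FT) in replicate 3, and to 671100 to 1229000 in the other BNST samples. The Oxt level was uneven, with 175 CPM in Sham replicate 3 and 1.14 to 2.13 CPM in the other 3 Sham samples. Those 3 were close to the median of 1.45 CPM over the other regions. The fitted difference is taken against the mean of the log levels of those regions, and 3 of the 4 Sham samples were not far above a typical region. Cbln3 (2.07) and Pde6h (1.99) completed the 5 largest named differences together with Adora2a and Ppp1r1b, and Cbln3 was scarce, with a mean of 0.237 CPM. Cbln3 missed the call without replicate 5 (edgeR adjusted p = 0.0654) and was -0.97 in FT samples, and Pde6h missed it without replicate 4 (edgeR adjusted p = 0.065). The largest differences in the other direction were Slc30a3, a zinc transporter of excitatory terminals (-2.91), Neurod1, a transcription factor of excitatory neurons (-2.53), Serinc2 (-1.94), Sgpp2 (-1.59) and Nptxr (-1.58). Sgpp2 missed the call without replicate 5 (edgeR adjusted p = 0.0832). The meningeal markers Igfbp2 and Ogn were called lower with all replicates and missed the call without replicate 3 (edgeR adjusted p = 0.172 and 0.0659). None of 5 thalamic markers was called in either direction in Sham BNST, and their median was -0.42. In FT samples Rora and Slc17a6 were called lower in the BNST than in the other regions (-1.79 and -1.66), and Tcf7l2 turned from 0.46 in Sham to -0.64 in FT without a call.

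Few transcripts of the BNST differed between FT and Sham by the edgeR quasi-likelihood test with replicate as a block. Differentially expressed genes (DEGs) were transcripts with an adjusted p of at most 0.1 and a level at least 25% higher in one group than in the other. Of 13578 transcripts tested 8 were DEGs (0.0589%), all of them lower in FT, and 0 were higher. At an unadjusted p under 0.05 there were 1498 transcripts (11%), with 924 higher (6.81%) and 574 lower (4.23%). The median log2 fold change over all transcripts was -0.0021. DESeq2, which the study itself used, called 258 of the 11477 transcripts it adjusted (2.25%), of which 159 (1.39%) were higher and 99 (0.863%) lower, and all 8 edgeR DEGs were among them. Taken over the 13578 transcripts of the edgeR test, DESeq2 called 1.17% higher and 0.722% lower. Counts were simulated from the trend of spread over level fitted to these 8 samples, with the same change in each pair. On them edgeR recovered 47 of 100 transcripts given a log2 change of 1 and DESeq2 48. Both also called unchanged transcripts, 11 and 13 of them. Spread particular to a transcript and unlike changes between pairs were left out, so recovery in the real samples may differ. Without the replicate block neither tool called any transcript.

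The 8 DEGs had no gene name. Apart from ENSRNOT00000071231, their levels moved together so closely that they may share reads from near-identical copies. ENSRNOT00000071231 was highest in Sham replicate 3 (684 CPM, against 301 CPM in Sham replicate 1), and its log2 ratio in pair 3 was -1.47. The others were highest in Sham replicate 1 and had ratios from -2.37 to -2.11 in pair 3. The 8 are given as a group, and their separate values are uncertain. Their summed level was 12207, 4474, 3278 and 5628 CPM in Sham and 4628, 1053, 587 and 862 CPM in FT. Every FT sample was below the Sham sample of its pair, although FT replicate 1 exceeded Sham replicates 3 and 4 so that the groups overlapped. The log2 fold changes of the 8 ran from -2.28 to -2.17 with edgeR adjusted p from 0.0376 to 0.0725. ENSRNOT00000072709 had the lowest unadjusted edgeR p of the 8 (log2 fold change -2.28 ± 0.27), and it shared its edgeR adjusted p of 0.0376 with others. ENSRNOT00000071231 was -2.17 ± 0.30. The fall was smallest in pair 1, where the median log2 ratio over the 8 was -1.44, and ran from -2.77 to -2.20 in pairs 3, 4 and 5. With replicate 3, 4 or 5 left out edgeR called 0 of the 8, with adjusted p from 0.197 to 0.303, 0.3 to 0.561 and 0.109 to 0.21, while DESeq2 called 8 of 8 each time.

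**Figure D1:**
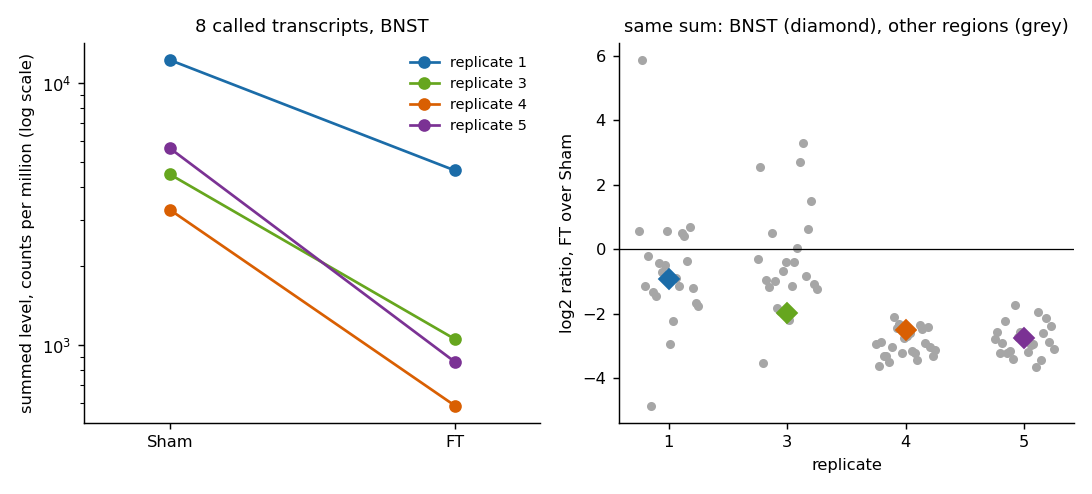
Left, summed level of the 8 DEGs in each BNST sample, in CPM with TMM scaling on a log axis, with lines joining the Sham and FT sample of a replicate. Right, log2 ratio of FT to Sham for the same sum, in CPM of the library total, with diamonds for the BNST and grey points for the other regions. In replicates 4 and 5 all 24 other regions lie below 0, and in replicates 1 and 3 they scatter to both sides.

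The lower level of these transcripts was not particular to the BNST. As a share of each library's total, the sum was lower in FT than in Sham in 24 of 24 other regions in replicate 4 and in 24 of 24 in replicate 5, with median log2 ratios of -2.99 and -2.83 beside -2.52 and -2.76 in the BNST. In replicate 1 it was lower in 16 of 22 regions (median -0.80, BNST -0.91) and in replicate 3 in 15 of 22 (median -0.74, BNST -1.98). These counts hold every other region with both samples.

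No named transcript was a DEG by edgeR, and the smallest adjusted p among 1829 named transcripts tested was 0.158. DESeq2 called 127 named transcripts higher (6.94% of the named) and 44 lower (2.41%). These names came from transcripts that the study had called in at least 2 regions of these same animals, so a larger share among named than among all transcripts is no independent evidence. FT exceeded Sham in 4 of 4 pairs for 24.4% of named transcripts and 12.9% of all, and was below it in 4 of 4 pairs for 9.57% and 9.22%. Of the 127 higher calls 30 had every FT sample above every Sham sample, and of the 44 lower calls 9 had every FT sample below. Over all transcripts tested these shares were 1.41% and 0.611%. The genes described from here on missed the edgeR call, and where DESeq2 called them this is said.

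Of the named transcripts higher in FT in 4 of 4 pairs, the 10 with the smallest edgeR p were Casp9, NOSIP, RGD1304595, Mdh2, Poldip3, Cirbp, Setdb1, Fam189a1, Trim28 and GPX4. DESeq2 called all 10 higher. Casp9, the initiator caspase of the mitochondrial death pathway, was at 13.8, 14.7, 10.6 and 15.9 CPM in Sham and at 33.5, 29.7, 46 and 36.4 CPM in FT. All FT values lay above all Sham values, with a log2 fold change of 1.41 ± 0.25 (edgeR adjusted p = 0.252, DESeq2 adjusted p = 0.000752). Cirbp, a cold-inducible RNA-binding protein, was at 84, 115, 113 and 84.9 CPM in Sham and 198, 179, 434 and 352 CPM in FT. Its groups did not overlap either, and its log2 fold change was 1.47 ± 0.28 (edgeR adjusted p = 0.292, DESeq2 adjusted p = 0.000525).

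Setdb1, a histone H3 lysine methyltransferase that silences chromatin, was at 15.4, 28, 45.9 and 62.8 CPM in Sham and 34.6, 45, 207 and 179 CPM in FT. Its partner Trim28, the corepressor that recruits Setdb1, was at 85.2, 62.2, 115 and 91.8 CPM in Sham and 134, 131, 267 and 239 CPM in FT. The Trim28 groups did not overlap, whereas FT replicates 1 and 3 of Setdb1 lay within the Sham range. Log2 fold changes were 1.40 ± 0.26 for Setdb1 and 1.08 ± 0.21 for Trim28 (DESeq2 adjusted p = 0.00129 and 0.00237, edgeR adjusted p = 0.292 and 0.305). Mdh2, the mitochondrial malate dehydrogenase, was at 696, 281, 148 and 191 CPM in Sham and 1212, 633, 451 and 499 CPM in FT. Poldip3 had log2 ratios from 0.77 in pair 3 to 2.46 in pair 5.

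Levels of some of these genes differed more between replicates than between treatments. GPX4, which reduces lipid hydroperoxides, was at 27.5, 1294, 3.37 and 11.5 CPM in Sham and 466, 1937, 77.8 and 75.5 CPM in FT. The 2 samples of replicate 3 were far above the rest, and the log2 ratio was 0.58 in that pair against 2.70 to 4.47 in the others. NOSIP, which binds nitric oxide synthase, likewise stood at 83.9 CPM in Sham replicate 3 against 3.49 to 6.84 CPM in the other Sham samples. Fam189a1 had 1 count in Sham replicate 1 and 33 in FT replicate 1, so its ratio in that pair rests on very few reads.

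**Figure D2:**
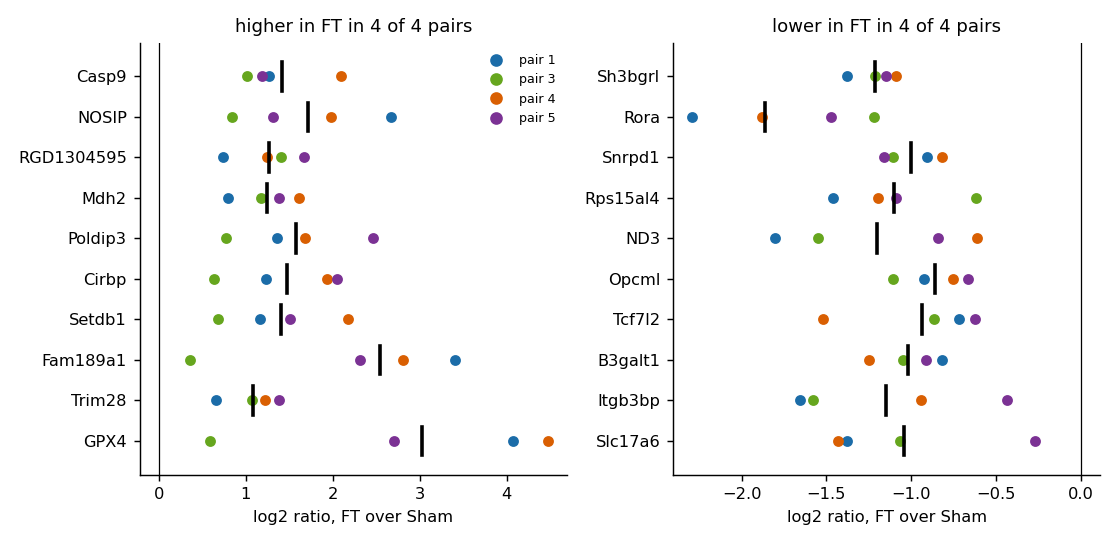
Log2 ratio of FT to Sham in each replicate pair (points, coloured by pair) and the edgeR log2 fold change (black bars) for the 10 named transcripts with the smallest p in each direction among those with the same direction in 4 of 4 pairs, which the choice of genes fixed. In pair 3 the ratios of GPX4 (0.58) and Cirbp (0.64) were the smallest among the pairs.

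Of the named transcripts lower in FT in 4 of 4 pairs, the 10 with the smallest edgeR p were Sh3bgrl, Rora, Snrpd1, Rps15al4, ND3, Opcml, Tcf7l2, B3galt1, Itgb3bp and Slc17a6. DESeq2 called all 10 lower. Sh3bgrl was at 66.8, 60.8, 38.8 and 43.4 CPM in Sham and at 25.6, 26.2, 18.1 and 19.4 CPM in FT. The groups did not overlap, the log2 ratios of the pairs were the closest together of the set (-1.38 to -1.09), and the log2 fold change was -1.21 ± 0.19 (edgeR adjusted p = 0.158, DESeq2 adjusted p = 8.56e-05). Snrpd1, a core protein of spliceosomal particles, was at 48.6, 115, 39.6 and 50.3 CPM in Sham and 25.9, 53.4, 22.4 and 22.4 CPM in FT. Only FT replicate 3 reached into its Sham range. Opcml, a cell adhesion protein of the neuronal surface, and B3galt1, a galactosyltransferase, had log2 fold changes of -0.86 ± 0.20 and -1.02 ± 0.24.

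Of the 7 traced markers of striatal neurons DESeq2 called 3 higher in FT (Rasd2, PENK, DRD2) and edgeR 0. All 7 had a positive log2 fold change (median 0.63, against -0.0021 over all transcripts and 0.16 over named ones). In 4 of 4 pairs 6 were higher, and 5 were higher at an unadjusted edgeR p under 0.05. Of the 1829 named transcripts 1089 were positive, 446 were higher in 4 of 4 pairs and 404 were higher at this p. PENK was at 777, 1111, 184 and 302 CPM in Sham and 1183, 2083, 435 and 505 CPM in FT. Replicates 1 and 3 were above replicates 4 and 5 within each group, so the groups overlapped while every pair had more in FT, by 0.87 ± 0.22 on the log2 scale (edgeR adjusted p = 0.348, DESeq2 adjusted p = 0.0187). Rasd2, a striatal G protein, was at 93.9, 112, 44 and 59 CPM in Sham and 184, 207, 83.7 and 93.3 CPM in FT (log2 fold change 0.86 ± 0.20, DESeq2 adjusted p = 0.0146, edgeR adjusted p = 0.305). DRD2, the dopamine D2 receptor, had a log2 fold change of 0.80 ± 0.21 (DESeq2 adjusted p = 0.0904, edgeR adjusted p = 0.348). The other 4 were Adora2a (0.63), Scn4b (0.55), Ppp1r1b (0.53) and Syndig1l (0.36), and Syndig1l was lower in pair 1. Sham BNST already held more of these transcripts than most regions, and the part that striatal tissue in the punches had in these values was not tested.

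Of 11 neuropeptide genes tested 3 were called higher by DESeq2 (PENK, Gal and Sst), 0 lower, and the median log2 fold change was 0.31. Sst, the somatostatin precursor, was at 42.5, 389, 21.2 and 32.1 CPM in Sham and 108, 690, 46.2 and 37.8 CPM in FT. Both replicate 3 samples were far above the others, and all 4 pairs had more in FT (log2 fold change 0.89 ± 0.24, DESeq2 adjusted p = 0.0559, edgeR adjusted p = 0.348). Gal, the galanin precursor, was at 28.8, 15.7, 7.2 and 13.3 CPM in Sham and 36.1, 27.4, 46.2 and 35.3 CPM in FT. Its log2 ratio was 0.32 in pair 1 and 2.66 in pair 4, and its log2 fold change 1.31 ± 0.36 (DESeq2 adjusted p = 0.0532, edgeR adjusted p = 0.348).

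Avp, the vasopressin precursor, was singled out after its values were seen. It was at 0.306, 6.99, 0.379 and 0.729 CPM in Sham and 10.8, 392, 0.487 and 0.726 CPM in FT. FT replicate 3 alone held 1541 counts against 20 in its Sham partner, while pairs 4 and 5 did not move apart, and neither tool called it (edgeR adjusted p = 0.348, DESeq2 adjusted p = 0.249). Of the BNST and GABA neuron markers other than PENK, Gad2 was lower in 4 of 4 pairs without a call, with 88.4, 144, 103 and 102 CPM in Sham and 79, 127, 90.5 and 87.4 CPM in FT (log2 ratios of the pairs -0.22 to -0.16, log2 fold change -0.19 ± 0.19, edgeR adjusted p = 0.702). St18 (-0.54), Th (-0.35) and Cartpt (0.16) were not called.

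**Figure D3:**
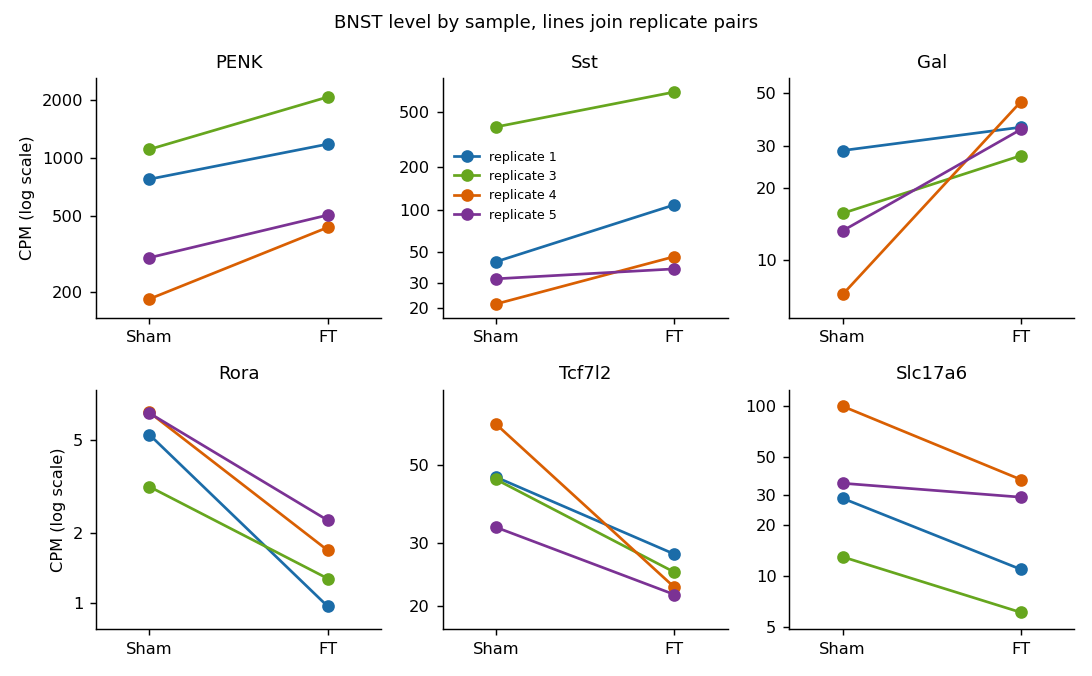
Level in each BNST sample, in CPM on log axes whose ranges differ between panels, of 3 neuropeptide precursors (PENK, Sst, Gal) and 3 thalamic markers (Rora, Tcf7l2, Slc17a6), with lines joining the samples of a replicate. All 24 lines run to higher values in FT for the precursors and to lower values for the thalamic markers. The genes drawn are the members of each list that DESeq2 called, so this agreement follows from the choice. Only these 3 of 11 neuropeptide genes were higher, and only these 3 of 5 thalamic markers lower, in 4 of 4 pairs.

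Of the 5 traced markers of thalamic neurons DESeq2 called 3 lower in FT (Rora, Tcf7l2, Slc17a6) and edgeR 0. The same 3 were lower in 4 of 4 pairs, and all 5 had a negative log2 fold change (median -0.94). Of the 1829 named transcripts 175 were lower in 4 of 4 pairs and 740 were negative. Rora, a nuclear receptor of thalamic and other neurons, was at 5.26, 3.15, 6.56 and 6.51 CPM in Sham and 0.965, 1.27, 1.68 and 2.26 CPM in FT. The groups did not overlap and the log2 fold change was -1.86 ± 0.35 (edgeR adjusted p = 0.292, DESeq2 adjusted p = 0.00646), although replicate 3 contributed only 9 and 5 counts. Tcf7l2, a transcription factor of Wnt signalling, was at 46.1, 45.5, 65.1 and 33.3 CPM in Sham and 28, 24.9, 22.6 and 21.5 CPM in FT. Its groups did not overlap either (log2 fold change -0.94 ± 0.22, DESeq2 adjusted p = 0.0296, edgeR adjusted p = 0.305). Slc17a6, the vesicular glutamate transporter of subcortical neurons, was at 28.6, 12.9, 99.4 and 35.1 CPM in Sham and 10.9, 6.1, 36.8 and 29 CPM in FT. Sham replicate 4 had the most, pair 5 differed least (log2 ratio -0.27), and the log2 fold change was -1.04 ± 0.25 (DESeq2 adjusted p = 0.035, edgeR adjusted p = 0.311). Necab1 (-0.46) and Plekhg1 (-0.54) were not called. Pvalb, the parvalbumin gene of fast-spiking neurons, was also called lower by DESeq2 (-0.96 ± 0.25, adjusted p = 0.0454). Summed over the 5 thalamic markers, Sham samples ranged from 73.1 to 186 CPM and FT samples from 40.6 to 71.3 CPM. The share of thalamic tissue in the punches was not tested.

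Ion channel genes differed between the pairs. Over 11 voltage-gated and potassium channel genes the median log2 ratio was -0.01 and -0.16 in pairs 1 and 3 and -1.50 and -1.47 in pairs 4 and 5. DESeq2 called 2 lower, 0 were called by edgeR, and 5 were lower in 4 of 4 pairs, beside 9.57% of named transcripts. Hcn2, a pacemaker channel, was at 5.87, 22.4, 5.34 and 7.35 CPM in Sham and 3.56, 15.8, 1.19 and 0.887 CPM in FT (log2 fold change -1.52 ± 0.43, DESeq2 adjusted p = 0.035, edgeR adjusted p = 0.348). Cacnb4, a calcium channel subunit, was at 82.5, 32.5, 79.6 and 80.8 CPM in Sham and 31.9, 23.6, 52.5 and 44.7 CPM in FT (-0.83 ± 0.22, DESeq2 adjusted p = 0.0533, edgeR adjusted p = 0.348). Choroid plexus and ependyma markers differed most in the same 2 pairs. Ttr, the transthyretin gene that choroid plexus makes in bulk, was at 40.3, 62.2, 586 and 131 CPM in Sham and 39.8, 69.1, 5.63 and 8.39 CPM in FT. All 4 markers of that list had a negative log2 fold change (median -1.16), 0 were called, and their summed level ran from 64.5 to 611 CPM in Sham and from 17.6 to 97.6 CPM in FT. The part of ventricular lining tissue in the channel values was not tested.

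Of 9 enzymes of energy metabolism DESeq2 called 4 higher in FT (Mdh2, Suclg1, Pfkl and Gpi) and edgeR 0. Of the 9, 8 had a positive log2 fold change, 7 were higher in 4 of 4 pairs and 7 were higher at an unadjusted edgeR p under 0.05. Among the 1829 named transcripts these counts were 1089, 446 and 404. The list median was 0.67, and the pair medians lay close together at 0.69, 0.63, 0.78 and 0.56. Suclg1, a subunit of the citric acid cycle enzyme succinate-CoA ligase, was at 274, 276, 161 and 149 CPM in Sham and 468, 443, 307 and 296 CPM in FT. Its groups did not overlap (log2 fold change 0.85 ± 0.20, DESeq2 adjusted p = 0.0166, edgeR adjusted p = 0.305). Pfkl (0.75 ± 0.20) and Gpi (0.67 ± 0.21) are enzymes of glycolysis, and their DESeq2 adjusted p were 0.072 and 0.0819. Ckb, the brain creatine kinase, was higher in 4 of 4 pairs without a call (0.54 ± 0.24). The study had named several of these genes from these samples, so the list is not independent evidence of its direction.

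Nuclear genes of the respiratory chain held higher members at about the shares of all named transcripts. Of 31 tested 7 were higher in 4 of 4 pairs and 1 lower, beside 24.4% and 9.57% of named transcripts. DESeq2 called 2 higher (Ndufs8 and Uqcrq), beside 6.94% of named transcripts, and edgeR 0. The median was 0.19, close to the 0.16 of all named transcripts. Pair medians were -0.33 in pair 1 and 0.30 to 0.52 in the others. Uqcrq depended on pair 4, where its log2 ratio was 3.95. For 30 mitochondrial ribosome and import genes the median was 0.38, with 6 higher in 4 of 4 pairs and 1 called higher by DESeq2 (Mrpl34). Both counts were below the shares of named transcripts. By 2 other measures the list was above them. Of the 30, 25 had a positive log2 fold change and 11 were higher at an unadjusted edgeR p under 0.05, beside 1089 and 404 of 1829 named transcripts.

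Transcripts of the mitochondrial genome, a set picked after their values were seen, went the other way. All 8 tested had a negative log2 fold change (median -0.96), and DESeq2 called 6 lower (ND3, MT-CO2, MT-CO3, MT-ND2, MT-ND4L and MT-ND5) and edgeR 0. ND3, a subunit of complex I, was at 1934, 4889, 267 and 268 CPM in Sham and 555, 1670, 174 and 149 CPM in FT (log2 fold change -1.20 ± 0.27, DESeq2 adjusted p = 0.00271, edgeR adjusted p = 0.305). MT-CO2, a subunit of cytochrome oxidase, was at 20861, 16786, 8057 and 8920 CPM in Sham and 5148, 6413, 5690 and 6243 CPM in FT, with no overlap. The differences were largest in pairs 1 and 3, where the median log2 ratios were -1.82 and -1.37 against -0.10 and -0.66 in pairs 4 and 5. Summed over the 8, Sham samples held 73580, 69410, 24160 and 33410 CPM and FT samples 22200, 33580, 18260 and 21090 CPM. The share of counts in the 50 most abundant transcripts was lower in FT in every pair. That share itself includes MT-CO3 and MT-CO2, for example in Sham replicate 1, and its part in these values was not tested.

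Chromatin regulators were mixed. Of 26 tested 14 were positive and 12 negative (median 0.14), and DESeq2 called 4 higher (Setdb1, Trim28, Jmjd6 and Hist2h2aa3), 0 lower, and edgeR 0. Jmjd6, a hydroxylase, was at 18.8, 11.2, 23.8 and 23.8 CPM in Sham and 34.5, 20.1, 54.5 and 46.4 CPM in FT (0.98 ± 0.20, DESeq2 adjusted p = 0.0163, edgeR adjusted p = 0.305). Of 25 ubiquitin and proteasome genes DESeq2 called 3 higher (Otub1, Usp20 and Psmd13) and the median was 0.31. Otub1, a deubiquitinase, was at 676, 388, 245 and 218 CPM in Sham and 1336, 571, 751 and 717 CPM in FT. FT exceeded Sham in 4 of 4 pairs and the groups overlapped through Sham replicate 1 (1.22 ± 0.26, DESeq2 adjusted p = 0.00374, edgeR adjusted p = 0.305).

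Cytosolic ribosomal protein genes divided. Of 21 tested DESeq2 called 1 higher (Rplp1) and 4 lower (Rpl23a, Rps15a, Rps28 and Rpl37), edgeR called 0, and the median was -0.24. Rpl23a was at 751, 544, 499 and 441 CPM in Sham and 297, 325, 285 and 303 CPM in FT, with no overlap and a log2 fold change of -0.86 ± 0.23 (DESeq2 adjusted p = 0.0201, edgeR adjusted p = 0.348). Rplp1 went the other way, at 87.9, 2128, 10.5 and 62.3 CPM in Sham and 352, 4821, 92.2 and 89 CPM in FT. Ribosomal protein genes have many processed copies in the genome, Rps15al4 among those named here, and how reads were split between copies is uncertain.

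Of 3 circadian and cold-inducible genes DESeq2 called Cirbp and Tef, and edgeR called 0. Tef, a clock-controlled transcription factor, was at 136, 104, 84.8 and 120 CPM in Sham and 280, 172, 162 and 153 CPM in FT, without overlap (0.77 ± 0.21, DESeq2 adjusted p = 0.072, edgeR adjusted p = 0.348). Fos, the only traced immediate early gene, was at 13.2, 11.5, 7.12 and 9.54 CPM in Sham and 24.4, 18.5, 12.2 and 17.8 CPM in FT. It was higher in 4 of 4 pairs (0.82 ± 0.22) and called by neither tool, with a DESeq2 adjusted p of 0.105 and an edgeR adjusted p of 0.348. Htr1a, the serotonin 1A receptor and the only traced gene of the serotonin system, was near the limit of detection with 1, 6, 1 and 10 counts in Sham and 25, 14, 1 and 1 counts in FT, and its direction differed between pairs.

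Of 19 tested genes that the study names for many regions, a list chosen on these samples and so no independent evidence, DESeq2 called 10 higher and 1 lower and edgeR 0 (median 0.98). Fam69b was at 47.6, 40.2, 20.8 and 30.2 CPM in Sham and 84.4, 59.7, 69.4 and 51.7 CPM in FT, with no overlap (0.98 ± 0.24, DESeq2 adjusted p = 0.0454, edgeR adjusted p = 0.309). Lpin2, a phosphatidate phosphatase, was at 56.7, 42.3, 84.4 and 86.7 CPM in Sham and 82.8, 53.1, 521 and 465 CPM in FT. The difference of Lpin2 was largest in pairs 4 and 5 (1.50 ± 0.42, DESeq2 adjusted p = 0.0236, edgeR adjusted p = 0.348). Angptl6 (1.78 ± 0.38), Lrtm2 (1.42 ± 0.32) and the Mediator subunit gene Med26 (1.21 ± 0.33) were also called higher by DESeq2 (adjusted p = 0.0131, 0.00811 and 0.0688) and missed the edgeR call. Commd4 (0.82 ± 0.21) and Pdrg1 (0.98 ± 0.25) were called higher by DESeq2 only (adjusted p = 0.0587 and 0.035), and Cds2, an enzyme of phospholipid synthesis, was called lower (-1.33 ± 0.45, DESeq2 adjusted p = 0.087, edgeR adjusted p = 0.376) with 60.5 and 43.5 CPM in the samples of replicate 3 against 0.565 to 5.1 CPM elsewhere. Mat2a, which makes S-adenosylmethionine, was at 11.1, 65.7, 71.5 and 61.7 CPM in Sham and 19.6, 75.5, 22.5 and 24.1 CPM in FT, so that pairs 1 and 3 were higher and pairs 4 and 5 lower. Sirt2 was higher in pairs 1, 3 and 4 and lower in pair 5 (0.65 ± 0.43). Napb, a vesicle fusion protein, had -0.64 ± 0.28. Mat2a, Sirt2 and Napb were called by neither tool.

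Oligodendrocyte and astrocyte markers did not move as groups. Of 17 oligodendrocyte markers 9 were positive and 8 negative (median 0.01), and DESeq2 called Ermn alone, which was at 256, 214, 495 and 341 CPM in Sham and 88.3, 93.3, 267 and 318 CPM in FT (-0.93 ± 0.27, DESeq2 adjusted p = 0.0533, edgeR adjusted p = 0.348). Their summed level ran from 3035 to 4930 CPM in Sham and from 3006 to 4867 CPM in FT. Of 7 astrocyte markers DESeq2 called Slc7a10, an amino acid exchanger, which was at 25.2, 18.2, 25.3 and 31.2 CPM in Sham and 35.2, 38.9, 83.4 and 66.1 CPM in FT (1.10 ± 0.24, DESeq2 adjusted p = 0.0189, edgeR adjusted p = 0.305). The astrocyte median was 0.03. Microglia markers (4, median 0.21), endothelial markers (2, -0.03), haemoglobin genes (2, -0.18) and meningeal markers (3, -0.32) had 0 calls by either tool, and no oligodendrocyte precursor marker was traced. All 4 microglia markers were positive and all 3 meningeal markers negative, as were the list medians in each pair. In 4 of 4 pairs 0 of the microglia markers were higher and 2 of the meningeal markers were lower. Log2 fold changes of abundant members were 0.32 for C1qa, 0.69 for Cx3cr1, 0.14 for Higd1b, -0.21 for Myl9, -0.37 for Hbb, 0.02 for Hbb-b1 and -0.26 for Ptgds, all below the call. Those of Igfbp2 and Ogn were -0.32 and -0.95, and that of Tekt1, an ependymal marker, was -0.32.

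Genes of fast transmission also had few calls. Of 9 glutamate receptors and transporters DESeq2 called Slc17a6 alone, and of 7 GABA synthesis, transport and receptor genes neither tool called any (medians -0.10 and -0.13). Gabrg1, a GABA-A receptor subunit, was lower in 4 of 4 pairs (-0.60 ± 0.19, edgeR adjusted p = 0.369), and Gabrb1 had -0.13 ± 0.26. Nrgn, a calmodulin-binding protein of excitatory neurons, was called higher by DESeq2 (1.29 ± 0.29, adjusted p = 0.00646, edgeR adjusted p = 0.305), at 84.9, 374, 13 and 39.8 CPM in Sham and 169, 680, 67.3 and 80 CPM in FT. It was the only one called among 4 cortical neuron markers and among 8 synapse and neurotrophin genes. Septal and preoptic markers (4, median 0.58) held 2 DESeq2 calls, Gal and Sst, while stress steroid genes (3, 0.38) and neuropeptide receptors (2, -0.69) held 0. Fkbp4, a glucocorticoid receptor cochaperone, and Cdkn1a were higher in 4 of 4 pairs without a call (0.61 ± 0.21 and 0.38 ± 0.24), and Nr3c2, Tacr3 and Calcrl had -0.31, -0.65 and -0.73.

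**Figure D4:**
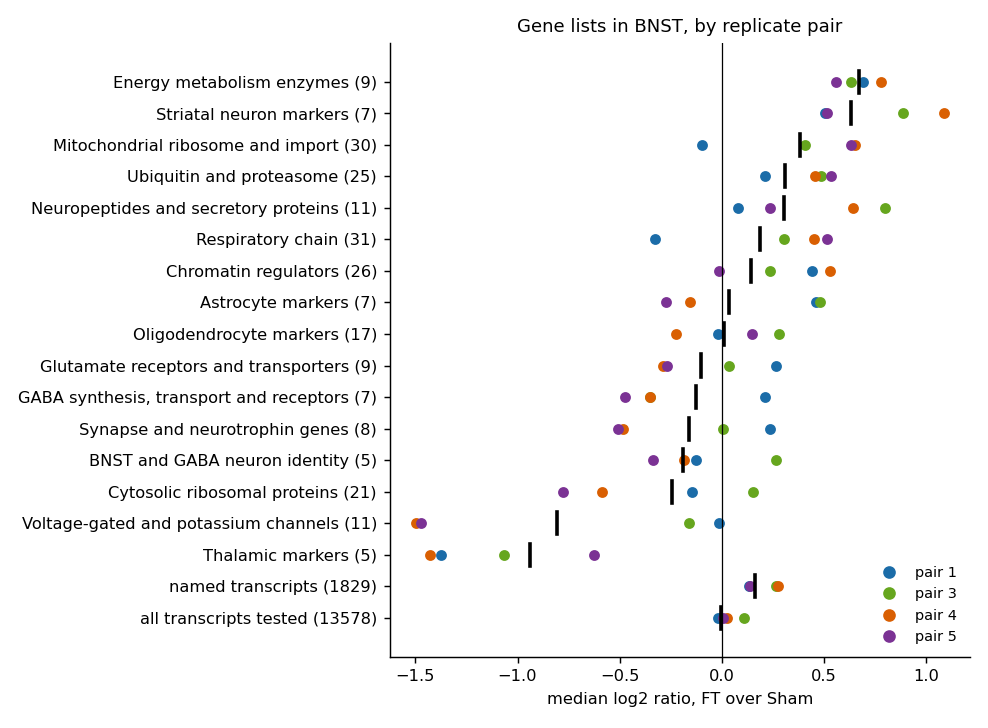
Median log2 ratio of FT to Sham over the members of each gene list (number tested in parentheses), for each replicate pair (points) and for the edgeR log2 fold change (black bars). Energy enzymes, striatal markers, neuropeptides, ubiquitin and proteasome genes and all named transcripts lie above 0 in all 4 pairs. Thalamic markers and channel genes lie below 0 in all 4 pairs, the channel genes near -1.5 in pairs 4 and 5 only.

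Replicate pairs fell into 2 sets. Across the 13578 transcripts, log2 ratios of pairs 1 and 3 had a Pearson r of 0.43 and those of pairs 4 and 5 of 0.44, whereas the other combinations ran from -0.08 to 0.12. This is a description across transcripts, which are not independent replicates, and the samples of a pair share their processing. The ratios also spread more in pairs 1 and 3 (SD 0.98 and 0.92) than in pairs 4 and 5 (0.63 and 0.64). DESeq2 called 103 transcripts without replicate 1, 142 without replicate 3, 79 without replicate 4 and 476 without replicate 5. Without replicate 4 the higher calls dropped to 14 while 65 were lower. Of 96 named transcripts described here, DESeq2 called 61 with all pairs and 26, 33, 15 and 55 without replicate 1, 3, 4 or 5.

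The response of the BNST was set against that of the centromedial amygdala (CMA), the other region of the extended amygdala, and of the lateral septum (LS), its neighbour, through the interaction of treatment and region. For CMA edgeR called 0 of 14660 transcripts and DESeq2 1, with 212 (1.45%) at an unadjusted edgeR p under 0.05. For LS both tools called 0, of 14742 transcripts in edgeR, with 351 (2.38%) at an unadjusted edgeR p under 0.05. A miss of the threshold does not show that the regions respond alike. On simulated counts with a log2 difference of 1 edgeR recovered 24 of 100 transcripts for CMA and 20 of 100 for LS. That simulation held 3000 transcripts with a fixed spread for all of them, so recovery in the real samples may differ.

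Within each replicate, the FT to Sham ratio of the BNST was then compared with the mean ratio of the other regions that had both samples. The pairs of SNT replicate 3 and CGC replicate 1 were left out, which kept 21 regions in replicates 1 and 3 and 24 in replicates 4 and 5. Limma called 0 of 13578 transcripts, and 1323 (9.74%) had an unadjusted p under 0.05. The mean log2 ratio of Tcf7l2 was -0.98 in the BNST, which differed from the other regions by -1.05 ± 0.18 and was lower than them in 4 of 4 replicates (limma adjusted p = 0.5). The difference was -1.33 for Rora, -0.98 for Slc17a6 and -1.21 for Pvalb, each lower in 4 of 4 replicates and each with a limma adjusted p of 0.5. Tcf7l2, these genes and PENK were named for their BNST ratios, which this comparison uses again. Their agreement in 4 of 4 replicates is therefore partly fixed by the choice and is no independent evidence. The other thalamic markers, Plekhg1 and Necab1, differed by -0.12 and 0.17 and were lower in 2 of 4 replicates. PENK was 0.77 above the other regions in 4 of 4 replicates (limma adjusted p = 0.5). In edgeR fits of each region alone, PENK had a log2 fold change of 0.77 in LS and -0.0066 in CMA. Slc17a6 had -0.71 in LS and -0.53 in CMA, Rora -0.47 and -0.53, Tcf7l2 -0.10 and -0.25, and Pvalb -0.10 and -0.13. Cirbp, Otub1 and Trim28 differed from the other regions by 0.05, 0.10 and 0.09.

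**Figure D5:**
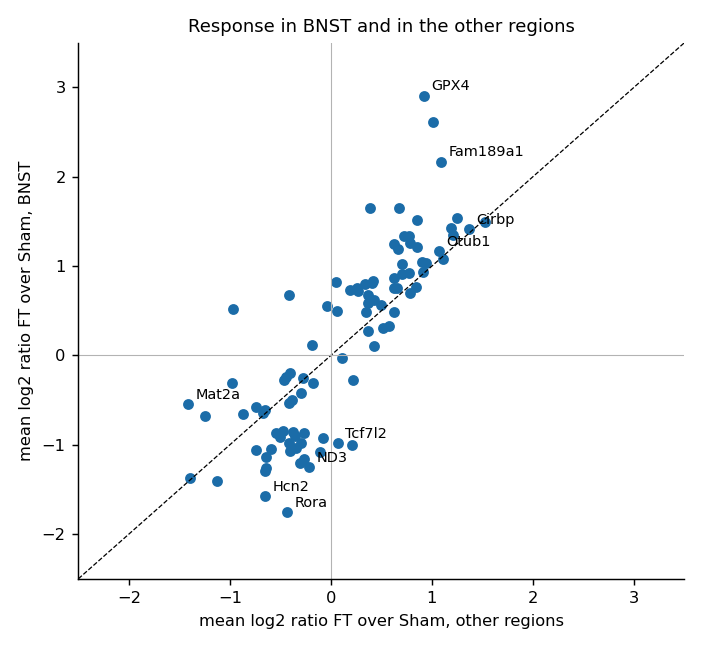
Mean log2 ratio of FT to Sham over 4 replicates in the BNST (vertical) against the mean of the other regions (horizontal) for the named transcripts of the text, with the line of equality dashed. Most of these genes were chosen for their BNST values, so points farther from 0 on the vertical axis follow from the choice. Cirbp and Otub1 lie close to the line, and Tcf7l2 lies near 0 for the other regions.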

How the data were processed

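RNA was sequenced from 8 pooled BNST samples with a stranded total RNA kit, although the labels give the molecule as polyA RNA, as paired reads of 76 bases. The authors aligned reads with STAR to rn5 and counted them with HTSeq per Ensembl transcript, versions not given in the sources used here, and deposited raw counts for 29188 transcripts with 5 summary lines, dropped here. Reads without a feature were 19.9 to 49.7% and ambiguous reads 3.44 to 7.75% of all. Raw reads of 2 Sham samples are labelled corrupted, and the tables were used as deposited. Sequences of the transcripts were not used here.

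Transcripts passing filterByExpr (minimum count 10, total 15) were scaled by TMM and tested with edgeR 4.0.16 (quasi-likelihood F test, Benjamini-Hochberg adjustment over all tested, replicate number as block) in R 4.3.3. DESeq2 1.42.0 with the same block was an alternative. The block follows from the parallel processing of same-numbered samples, whose deviations from the group means correlated by 0.546 to 0.826, all over 0.1. Sham replicate 4 with FT replicate 5 (0.668) and Sham replicate 5 with FT replicate 4 (0.621) correlated as strongly. These correlations therefore do not tell the pairing of replicates 4 and 5 from a swapped one. The other combinations of unlike numbers ran from -0.697 to 0.0555. CPM use library totals scaled by TMM factors, and pair ratios use a prior count of 2. The interactions used edgeR, the comparison with other regions limma 3.58.1, and the regional contrast Sham samples of 25 regions, both without SNT replicate 3 and CGC replicate 1. Samples were grouped by their labels. Whether pools of a number shared litters is not stated, and p-values measure the spread between these pools.

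Gene names came from a list in the study's supplement, restricted to transcripts it had called in at least 2 regions. Since no named transcript was called by edgeR, the text names the 10 with the smallest p in each direction among those that differed the same way in 4 of 4 pairs, list members called by edgeR or DESeq2 and otherwise the 3 most abundant of a list, genes of interest to the study, the 5 largest called regional differences in each direction, and 2 identifiers without a name. Genes named beyond this were chosen after their values were seen, and 1 gene that the rule names is not reported here. The members and lists were chosen with earlier results of these data known. Alternatives changed the tool, block, filter, scaling, cut-off and replicates. Each procedure was tested on simulated counts.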

Additional observations from a re-analysis of the deposited data

Results flagged for a closer look

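Single samples far from the other 3 of their group were looked for in 200 groups of 4 values, and 35 were found. For normal, independent values about 1 in 20 would be marked, but most values here were unlogged CPM of chosen genes in the same libraries. In 29 of the 35 the far sample was of replicate 3. Summed over all tested transcripts, CPM were also highest in replicate 3 (2092000 in Sham and 1943000 in FT, against 671100 to 1229000 in the other samples).

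In Sham replicate 3 the high values were Avp 6.99, Cds2 60.5, Ckb 4548, GPX4 1294, Hcn2 22.4, Hist2h2aa3 59.8, Mrpl34 62.6, NOSIP 83.9, Rplp1 2128, Snrpd1 115 and Sst 389 CPM, and Cacnb4 was low at 32.5 CPM. In FT replicate 3 the high values were Avp 392, Cacna1i 2.54, Cartpt 158, Cds2 43.5, Ckb 7902, Hbb 1227, Hist2h2aa3 128, MT-ND4L 765, Mat2a 75.5, Mrpl34 117, Nrgn 680, Rplp1 4821, Rps15a 995, Rps15al4 48.0, Rps28 630, Snrpd1 53.4 and Sst 690 CPM.

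FT replicate 1 had the lowest share of reads without a feature, 19.9% against 43.6 to 47.6% in the other FT samples, and Sham replicate 1 had 22.4%. It also had the highest Tef level of the FT samples (280 CPM) and the highest sum of the 8 DEGs (4628 CPM against 587 to 1053 CPM). Mat2a was lowest in Sham replicate 1 at 11.1 CPM, where Higd1b was highest at 33.4 CPM. Ttr was highest in Sham replicate 4 at 586 CPM against 40.3 to 131 CPM in the other Sham samples.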

How the results depend on the processing

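The count of 8 DEGs, all lower, was the same with median-ratio size factors, a mean count of at least 50 and robust empirical Bayes. It was 0 without the replicate block in edgeR and in DESeq2 (added after seeing the data), 5 at an adjusted p of 0.05 (5 lower), and with 1 replicate left out it ran from 0 to 9 (higher 0 to 1, lower 0 to 8). Without the low-count filter edgeR called 430 (241 higher, 189 lower) and DESeq2 called 258 (159 higher, 99 lower). DESeq2 with 1 replicate left out, also added after seeing the data, called 103 (77 higher, 26 lower) without replicate 1, 142 (106, 36) without 3, 79 (14, 65) without 4 and 476 (270, 206) without 5. The interaction with CMA had 1 call in DESeq2. The regional contrast had 597 calls, 256 without the replicate block, 975 without the low-count filter and 873 in FT samples. The median of the energy enzymes was 0.56 to 0.66 with 1 replicate left out and 0.58 in DESeq2 without replicate 4, and that of oligodendrocyte markers -0.22 to 0.15. Signs turned for Htr1a in DESeq2 without replicate 1 (-0.47), for Cartpt without replicate 4 in DESeq2 (-0.0537) and in edgeR (-0.0764 to 0.30 with 1 replicate left out), and in the regional contrast for Cbln3 (-0.97) and Tcf7l2 (-0.64) in FT samples and for Scn4b with 1 replicate left out (-0.0313 to 0.44). Against the other regions Cirbp ran from -0.20 to 0.33 with 1 replicate left out and Trim28 was -0.0049 with the median over regions. The causes were not tested. Of 96 named transcripts edgeR called 0 under every setting but the absent low-count filter, where it called 54. Genes with a difference close to 0 also changed sign. Without the replicate block these were Hbb (0.0497), Higd1b (-0.0543, DESeq2 -0.0799) and Myl9 (0.0506, DESeq2 0.0063). Hbb-b1 was -0.0092 with median-ratio size factors and -0.0024 both with a mean count of at least 50 and in DESeq2. With 1 replicate left out edgeR ran from -0.43 to 0.019 for Gabrb1, -0.22 to 0.17 for Hbb-b1 and -0.0877 to 0.43 for Higd1b. In DESeq2, Gabrb1 (0.0406) and Hbb-b1 (-0.17) turned without replicate 3, Ptgds (0.0174) without replicate 4, and Gabrb1 (0.0475), Hbb-b1 (-0.0252) and Higd1b (-0.045) without replicate 5. The 4 pools of a group and totals down to 5992347 counts limit what could be called.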
